A study of Mus musculus with 24 samples.

Results

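The comparison was between the brains of 6 mice that received human amnion epithelial cells on top of a saline vehicle and those of 6 mice that received the vehicle alone. These 12 mice were taken by their treatment label from the 24 mice of the series, and the other 12 had been infused with angiotensin II. All were male wild-type C57Bl6 mice, 8 to 12 weeks old at the start. Both groups were implanted with an osmotic minipump that delivered 0.9% saline under the skin for 14 days, and both received a tail vein injection after pump surgery. The injection held 1000000 amnion epithelial cells in the vehicle + AEC group and saline in the vehicle group, so surgery, saline infusion and injection were shared. The cells had been isolated from human term placentae. Angiotensin II-infused mice, given 0.7 mg/kg/d, entered the comparison only through the shared estimate of spread and the interaction.

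Amnion epithelial cells line the innermost fetal membrane. They are known for secreting factors that dampen inflammation and fibrosis. Without angiotensin II, the comparison asks what the cells do to the brain of a mouse given saline only. All 54532 gene identifiers in the table are mouse identifiers, so human transcripts of the injected cells were not measured as such. Whether reads of human transcripts were counted under mouse genes was not tested.

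Poly(A) RNA of a brain hemisphere was measured as fragments per kilobase of gene and per unit of library depth (FPKM), which allows levels to be compared between genes. The 12 libraries held between 16659582 and 25308700 recovered reads. A set of 3 libraries stood apart from the other 9. Vehicle mice 5 and 6 and vehicle + AEC mouse 6 had summed FPKM values of 340560 to 348597, against 277116 to 298301. Mitochondrial genes took 6.17% to 6.67% of reads in these 3 libraries and 5.04% to 5.58% in the 9. The first principal component held 62.57% of the variance of the 12 libraries and separated the same 3 from the 9. The labels name no such set, so values that move with it are given also with the set as a term in the fit, or in the 4 vehicle and 5 vehicle + AEC mice outside it.

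No gene passed the test for an effect of amnion epithelial cells in vehicle mice. Of 24299 genes above 0 FPKM in at least 6 of the 12 mice, 0 had an adjusted p-value under 0.05 (limma on log2(FPKM + 0.1), Benjamini-Hochberg adjustment, 0%), and limma voom on the recovered reads also gave 0. In limma the adjusted p-values went no lower than 0.357. Before adjustment 517 genes (2.13%) were under 0.05 in limma, 233 of them higher (0.959%) and 284 lower (1.17%) with the cells, and voom counted 504. The library set as a term brought this number to 823 (3.39%), and the 9 mice outside the set gave 991 (4.08%). Leaving out vehicle + AEC mouse 6 alone gave 1037. Among the compared mice, the library set was then in the vehicle group only, so a difference of the set enters that count. The limma p-values rest on a spread between mice estimated over all 24 mice of the series and moderated across genes. Fold changes are differences of mean log2(FPKM + 0.1), so those of weakly expressed genes are understated.

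How closely a single gene was measured depended on its level. The median unadjusted 95% confidence interval of the log2 fold change extended 0.37 to each side, a 1.29-fold difference, over all genes. For the 4490 genes with a mean of 10 to 100 FPKM it extended 0.23, or 1.17-fold, and 11 of them (0.245%) were under 0.05 before adjustment. With the library set as a term the same interval extended 0.097. Genes between 0.1 and 1 FPKM were measured less closely, with a median of 0.57 to each side, and 246 of 7095 (3.47%) were under 0.05. Among the 418 genes over 100 FPKM, 0 were in limma, while their interval extended 0.32.

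**Figure D1:**
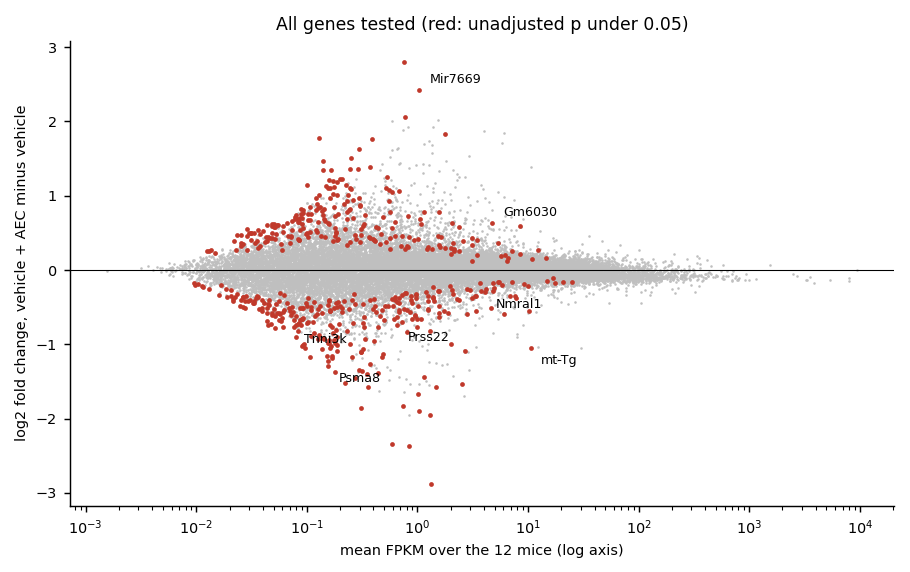
Log2 fold change on the log2(FPKM + 0.1) scale (vehicle + AEC minus vehicle, vertical axis) of the 24299 genes tested against their mean FPKM over the 12 mice (log axis). Red points are the 517 genes with an unadjusted p-value under 0.05, none of which had an adjusted p-value under 0.05, and few of them lie above 10 FPKM.

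Among genes with a mean of at least 1 FPKM, those of lowest p-value that were higher with amnion epithelial cells included a transporter, a transcription factor and a secreted brain protein. In this range 106 of 13619 genes (0.778%) were under 0.05 before adjustment, or 319 (2.34%) with the library set as a term, so the genes named here are the extremes of a comparison in which none passed adjustment. Slco4a1 (chromosome 2, 180456245 to 180474867, GRCm38 as in the table throughout), a carrier of organic anions that include thyroid hormone, ranged from 1.18 to 1.64 FPKM (median 1.38) in vehicle mice and from 1.59 to 1.96 FPKM (median 1.76) with the cells. All 6 treated mice lay above the vehicle median, and the groups overlapped through vehicle mouse 1. Its log2 fold change was 0.34 (SE 0.11, unadjusted limma p = 0.00585, adjusted p = 0.995, two-sided exact permutation p = 0.00433, n = 6 per group).

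Sox8 (chromosome 17, 25565892 to 25570686), a transcription factor of the oligodendrocyte lineage, ranged from 13.2 to 14.1 FPKM (median 13.5) with vehicle and from 13.8 to 16.3 FPKM (median 15.3) with the cells, with all 6 treated mice above the vehicle median. The log2 fold change was 0.16 (SE 0.06, two-sided exact permutation p = 0.00866) and 0.17 outside the library set. An exon of Sox8 overlaps 2810468N07Rik on the opposite strand, and counting by strand is not given in the sources used here. Fam19a1 (chromosome 6, 96113154 to 96657198), which encodes a secreted chemokine-like protein of the brain, had a median of 5.20 FPKM with vehicle (range 4.85 to 5.85) and 6.03 FPKM with the cells (range 5.61 to 6.36). Fam43a (chromosome 16, 30599723 to 30602797) had medians of 6.86 FPKM (5.26 to 7.54) and 7.66 FPKM (6.80 to 8.62), a log2 fold change of 0.26 (SE 0.09), and it was also among the 5 higher genes of lowest p-value with the library set as a term. Aloxe3 (chromosome 11, 69125896 to 69149115), a lipoxygenase best known in the epidermis, had medians of 1.11 and 1.31 FPKM and a log2 fold change of 0.29 (SE 0.12).

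The remaining higher genes of this range were non-coding or pseudogenes. Gm6030, Gm7332 and Snrpert are processed pseudogenes whose reads may be shared with their parent genes, and their log2 fold changes were 0.63, 0.78 and 0.59. The long non-coding RNA BC002059 and the unannotated transcript 5930409G06Rik were higher by 0.28 and 0.46 on the log2 scale, in all 6 treated mice against the vehicle median. Dlx1as, antisense to the interneuron transcription factor Dlx1, had medians of 0.880 and 1.20 FPKM, a log2 fold change of 0.42 (SE 0.16). Dlx1as and Dlx1 share exon bases, so their reads cannot be told apart without strand. Mir7669 rested on 0 to 1 reads per vehicle mouse and 0 to 5 per treated mouse, and no fold is given.

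On the lower side, Mical1 had the lowest p-value among genes with a mean of at least 1 FPKM. Mical1 (chromosome 10, 41476314 to 41487032), a flavin monooxygenase that oxidises actin and disassembles its filaments, ranged from 1.36 to 1.68 FPKM (median 1.57) with vehicle and from 0.970 to 1.36 FPKM (median 1.24) with the cells. Treated mice all lay below the vehicle median, and the groups met at 1.36 FPKM, where they overlapped by a single vehicle mouse. The log2 fold change was -0.36 (SE 0.09, 95% interval -0.55 to -0.16, adjusted limma p = 0.995, two-sided exact permutation p = 0.00433). With the library set as a term it was also -0.36, and an exon overlaps Smpd2 on the opposite strand.

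Nmral1 (chromosome 16, 4710059 to 4719356), an NADPH-sensing protein, separated the groups. It ranged from 4.02 to 5.06 FPKM (median 4.47) with vehicle and from 3.41 to 3.95 FPKM (median 3.59) with the cells, so that every treated mouse lay below every vehicle mouse. The log2 fold change was -0.29 (SE 0.09, unadjusted limma p = 0.00557, two-sided exact permutation p = 0.00216, the smallest that 6 mice against 6 allow). Separation of this kind was seen for 17 of the 24299 genes (0.07%), 5 higher (0.0206%) and 12 lower (0.0494%) with the cells. Zfp729b (chromosome 13, 67589439 to 67609707), a zinc finger gene, was another, at 1.22 to 1.46 FPKM (median 1.30) against 0.959 to 1.16 FPKM (median 1.06). Its log2 fold change was -0.29 (SE 0.09), and exon bases are shared with Gm49345 on the same strand. Gm14703, antisense to the synaptic vesicle gene Syp, also separated the groups, at medians of 1.58 and 1.20 FPKM.

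Hdac1 (chromosome 4, 129516104 to 129542713), a histone deacetylase, ranged from 8.83 to 10.8 FPKM (median 9.80) with vehicle and from 7.79 to 9.34 FPKM (median 8.65) with the cells, and all 6 treated mice lay below the vehicle median. On the log2 scale it was lower by 0.19 (SE 0.07, two-sided exact permutation p = 0.0130). Polr1e (chromosome 4, 45018583 to 45036565), a subunit of RNA polymerase I, had medians of 2.11 and 1.82 FPKM and a log2 fold change of -0.21 (SE 0.08). Mmadhc (chromosome 2, 50279881 to 50296801), which routes vitamin B12 within cells, had medians of 18.4 and 16.9 FPKM, with vehicle mouse 5 highest at 22.6 FPKM, and a log2 fold change of -0.18 (SE 0.07). Dnph1 (chromosome 17, 46496711 to 46499624), a nucleotide hydrolase, had medians of 3.43 and 2.66 FPKM and a log2 fold change of -0.38 (SE 0.13), with 5 of 6 treated mice below the vehicle median. The mitochondrial glycine tRNA mt-Tg was at 8.79 to 19.0 FPKM and 2.37 to 11.3 FPKM, from at most 27 reads in a mouse. It is 68 bases long and poly(A) RNA was measured. Whether its reads came from the tRNA or from longer transcripts that cover it was not tested. The pseudogene Gm8741, Gm3435 and the non-coding Gm39469 were lower by 0.54, 0.55 and 0.55 on the log2 scale, as differences of means of log2(FPKM + 0.1).

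**Figure D2:**
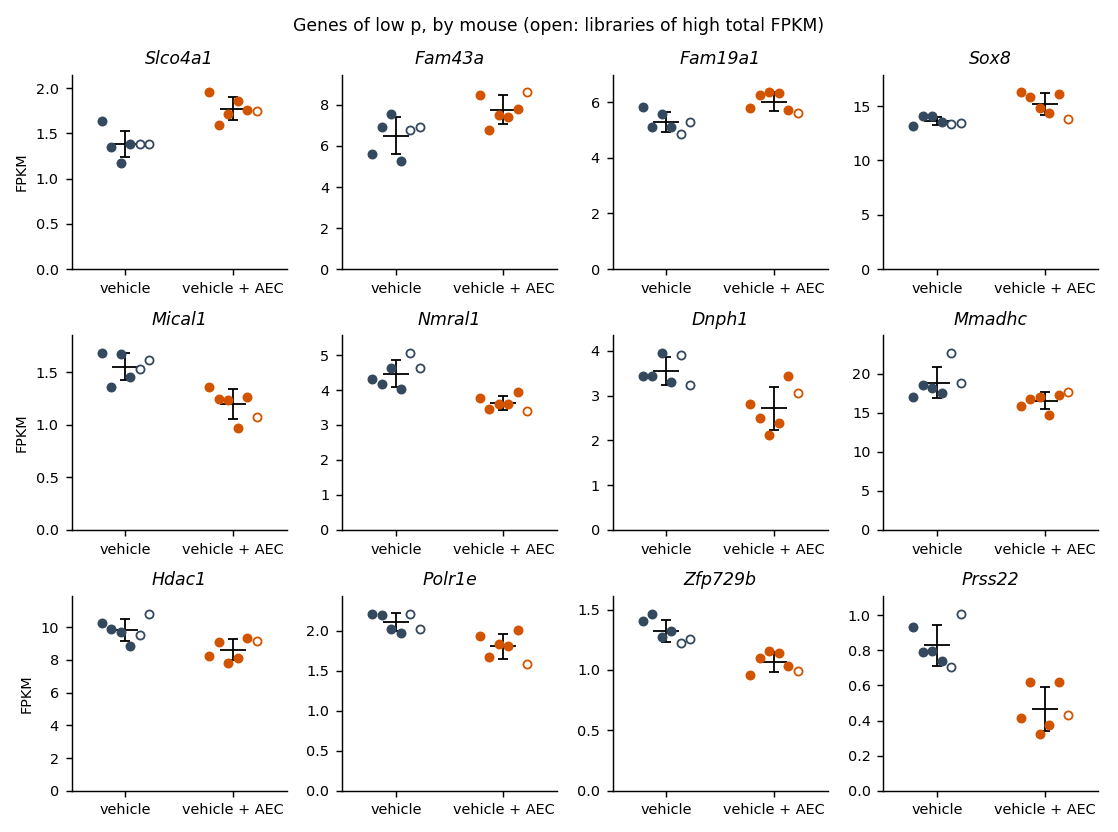
FPKM of 12 genes of low p-value in each mouse (points), with the group mean and SD (black), and open points for the 3 libraries of high summed FPKM. Nmral1, Zfp729b and Prss22 separate the groups, with Nmral1 at 4.02 to 5.06 FPKM with vehicle and 3.41 to 3.95 FPKM with the cells, while the other 9 overlap.

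Over all levels of expression, the 3 lowest p-values on the lower side belonged to genes under 1 FPKM. Tnni3k (chromosome 3, 154786291 to 155055407), a kinase that binds cardiac troponin I, had at most 15 reads in a vehicle mouse and at most 3 reads in any treated mouse. Its level was 0.0817 to 0.179 FPKM (median 0.114) with vehicle and 0.0146 to 0.0532 FPKM (median 0.0248) with the cells, so the groups did not overlap. Set against a floor of 3 reads per library, it was at least 2.45-fold lower (adjusted limma p = 0.357, two-sided exact permutation p = 0.00216). Psma8, a proteasome subunit of the testis on chromosome 18 (14706151 to 14762299), had at most 14 and 2 reads per mouse in the 2 groups, did not overlap and was by the same measure at least 2.74-fold lower.

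Prss22 (chromosome 17, 23993535 to 23998100), a secreted serine protease, was better covered, with at most 34 reads in a vehicle mouse. It ranged from 0.704 to 1.01 FPKM (median 0.795) with vehicle and from 0.324 to 0.618 FPKM (median 0.424) with the cells, without overlap. The log2 fold change was -0.74 (SE 0.17, adjusted limma p = 0.995, two-sided exact permutation p = 0.00216) and -0.71 in the 9 mice outside the library set. On the higher side Gm43150, an antisense transcript, had 0 reads in every vehicle mouse and at most 6 with the cells, which makes it at least 1.04-fold higher. It entered the test only through its 6 treated mice, since the filter asked for 6 mice above 0 FPKM, so it had to differ and its p-values are no support for a difference. Its adjusted p-value was 0.861 in limma, and 0.0392 when the 12 mice were fitted without the angiotensin II-infused mice. Slc5a4b had at most 1 and 6 reads, and its groups overlapped. Against the floor of 3 reads per library it was at least 1.11-fold higher, a bound that leaves out the spread between mice. Gm15727 had at most 1 and 3 reads, so no fold is given. Its vehicle mice held 1 read in all, so Gm15727 too met the filter of 6 mice chiefly through the treated mice. Its p-values are likewise no support for a difference.

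Mki67, the proliferation marker, was 1 of the 5 genes whose treated mice all lay above all vehicle mice, and it is described here because of that value. It ranged from 0.0405 to 0.119 FPKM (7 to 24 reads) with vehicle and from 0.122 to 0.183 FPKM (21 to 37 reads) with the cells, a log2 fold change of 0.51 (SE 0.14) that did not pass adjustment. A further 6 cell division genes were read after that. Of Top2a, Ccna2, Cdk1, Birc5, Ccnb1 and Cenpf, 2 were higher and 0 were under 0.05 in limma before adjustment, and Top2a was at medians of 0.117 FPKM with vehicle and 0.0875 FPKM with the cells.

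Taking the library set into account brought forward other genes. This choice was made after seeing the data, and none had an adjusted p-value under 0.05 in that fit. Cidea, a lipid droplet protein, was at 2.11 to 2.48 FPKM in the 4 vehicle mice outside the set and at 4.45 and 4.5002 FPKM in the 2 inside it. Cidea had a log2 fold change of 0.24 without and 0.35 with the set as a term. Pcp4, a regulator of calmodulin, was at medians of 71.8 and 63.1 FPKM, with a log2 fold change of -0.23 with the set as a term, and shares exon bases with Igsf5 on the same strand. Fbxo42, Champ1 and Cd59b, respectively an F-box protein, a chromosome segregation protein and a complement inhibitor of the cell surface, were higher by 0.16, 0.13 and 0.45 on that scale. The imprinting regulator Zfp57 and the non-coding 2610306M01Rik had log2 fold changes of -0.28 and -0.31.

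Known gene groups were then described by how many tested members were higher and by their median log2 fold change, beside 52.8% higher and a median of 0.01 over all genes. Across 37 lists, 461 distinct genes were tested, of which 0 passed at an adjusted p of 0.05 in limma. Before adjustment 6 were under 0.05, against 517 of all 24299 genes (2.13%), so the lists held no larger share. Sik1 and C5ar1 were among these 6 on the higher side, and Lum, Plac8 and Treml4 on the lower side. Without vehicle + AEC mouse 6, which leaves the library set in vehicle mice only, the number was 24, and the count over all genes rose too. Without vehicle + AEC mouse 3 the number was 10. In hemisphere RNA, fewer cells of a type and less RNA per cell cannot be told apart.

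**Figure D3:**
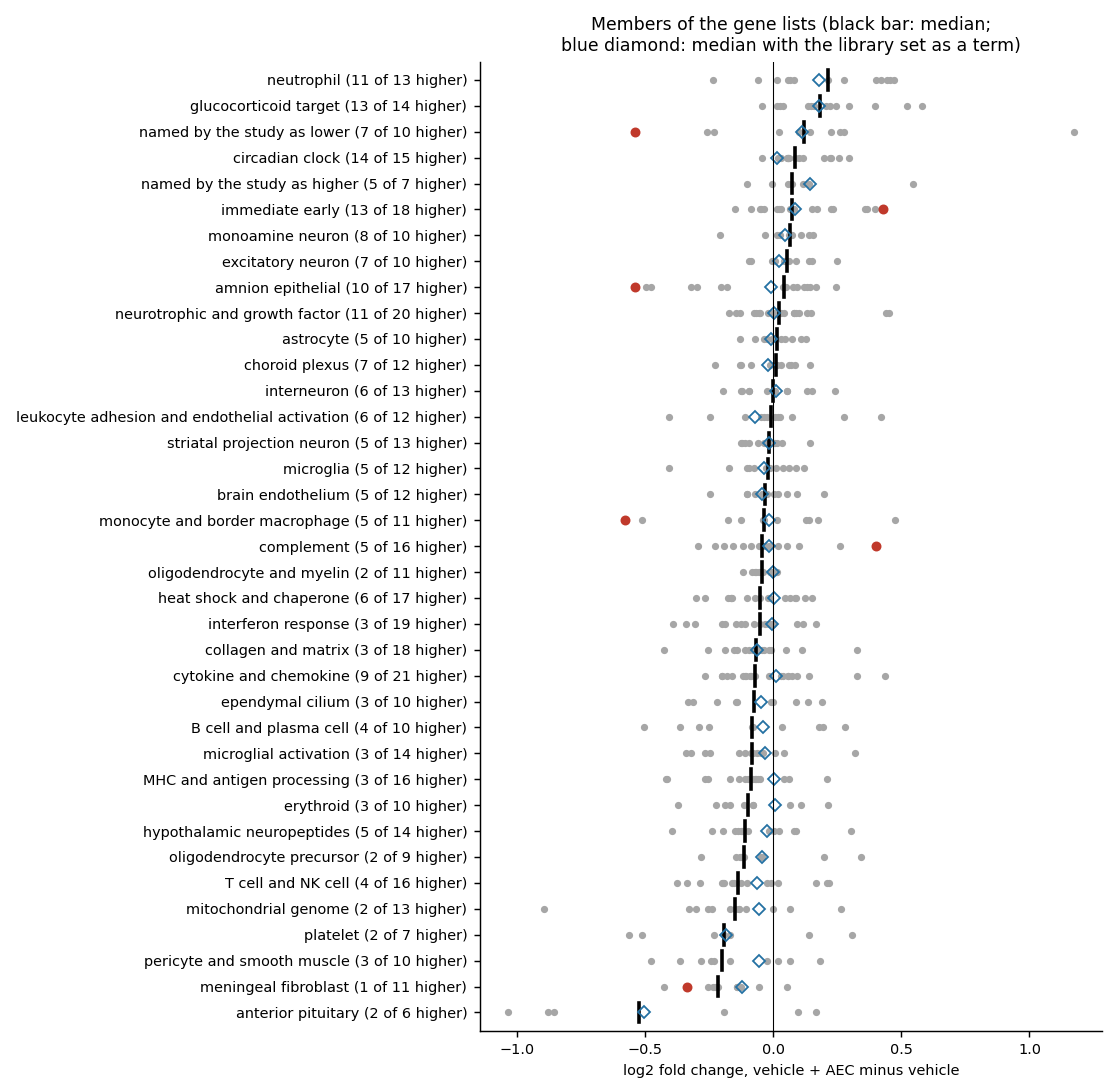
Log2 fold change (vehicle + AEC minus vehicle) of each tested member of the 37 gene lists (grey points, red where the unadjusted p-value was under 0.05), with the list's median (black bar) and its median with the library set as a term (blue diamond). Most medians lie within 0.2 of 0, and that of the interferon response moves from -0.05 to -0.004 with the set as a term.

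Targets of the glucocorticoid receptor are induced when circulating corticosterone is raised. Of 14 such genes, 13 (92.9%) were higher with amnion epithelial cells, with a median log2 fold change of 0.18. In limma 0 of them were under 0.05 before adjustment. Vehicle + AEC mouse 1 was picked out after the values of this list were seen. It held the highest level of the 12 mice for 9 of the 14 genes (64.3%), against 8.04% of the 13619 genes with a mean of at least 1 FPKM. Because the mouse was picked on this list, these shares are no test. Without this mouse 11 of 14 genes were higher and the median was 0.079. With the library set as a term (background 49.7% higher), 13 of 14 were higher with a median of 0.18, and Pdk4 and Ddit4 were under 0.05 before adjustment.

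Sgk1, a kinase that regulates ion transport and myelin, was at 6.03 to 14.9 FPKM (median 9.95) with vehicle and at 7.04 to 34.9 FPKM (median 12.3) with the cells, the highest value being that of mouse 1. Sgk1 was higher by 0.52 on the log2 scale (SE 0.32, two-sided exact permutation p = 0.212) and 0.26 without mouse 1. Fkbp5, a co-chaperone of the receptor, was at 5.94 FPKM in mouse 1 and at 2.86 to 4.41 FPKM in the other 5 treated mice. Plin4, a lipid droplet coat protein, was at 5.26 FPKM in mouse 1 and at 0.550 to 2.21 FPKM in the others, against 0.407 to 1.79 FPKM with vehicle. These and Zbtb16, at 7.72 FPKM in mouse 1 and 2.29 to 5.28 FPKM with vehicle, were named after their values were seen.

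Pdk4, which restrains pyruvate oxidation, was at 1.43 to 3.39 FPKM (median 2.55) with vehicle and 1.90 to 4.10 FPKM (median 3.27) with the cells, and its log2 fold change was 0.40 (SE 0.21), or 0.27 with the library set as a term. Ddit4, an inhibitor of mTOR signalling, had medians of 25.4 and 29.0 FPKM and a log2 fold change of 0.20 (SE 0.12), which was 0.11 without mouse 1, where it was at 41.4 FPKM. Sult1a1, a sulfotransferase, had medians of 6.23 and 6.84 FPKM and was at 11.3 FPKM in mouse 1, and its log2 fold change was 0.24 with and 0.13 without that mouse.

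Of 12 genes of the list with a promoter window in RefSeq, 1 held the full palindromic glucocorticoid response element, against 3 of 27025 genes (0.01%) with a window. A window ran from 250 bases before to 50 after a start site (GRCm38.p6), and both strands were searched. The match was in Sgk1, in the window of an internal start site at chr10:21993640-21993939 on the plus strand, with its first base 189 bases before the start, and the other windows of Sgk1, which has 6, held none. A single arm of the palindrome, AGAACA, was found in 3 of the 12 genes (25.0%) and in 5750 of the 27025 (21.28%), a share near the background. The sequence is shown because it holds the single match in this list, and the capitals mark it.
Sgk1: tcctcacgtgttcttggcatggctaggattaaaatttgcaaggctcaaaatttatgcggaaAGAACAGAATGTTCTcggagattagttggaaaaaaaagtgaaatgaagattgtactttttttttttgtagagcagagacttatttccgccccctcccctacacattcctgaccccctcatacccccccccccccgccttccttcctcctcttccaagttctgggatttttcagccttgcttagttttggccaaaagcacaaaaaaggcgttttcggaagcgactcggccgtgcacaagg

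Immediate early genes are transcribed within minutes of neuronal activity. Of 18, 13 (72.2%) were higher with the cells, at a median log2 fold change of 0.07. With the library set as a term (background 49.7%) 14 of 18 were higher, at a median of 0.08. In the 9 mice outside the set (background 49.5%) 17 of 18 were higher, at a median of 0.27. That fit leaves out vehicle mice 5 and 6, both above the vehicle median for Fos. Vehicle mice 1, 2 and 4, picked after these values were seen, were the 3 lowest of all 12 mice for 10 of the 18 genes (55.6%). They were the 3 lowest for 0.624% of the 13619 genes with a mean of at least 1 FPKM. Because the 3 mice were picked on this list, these shares are no test of a split. Fos, a subunit of the AP-1 transcription factor, was at 4.09, 5.53 and 4.17 FPKM in these 3 mice and at 12.9, 14.5 and 9.77 FPKM in vehicle mice 3, 5 and 6. Treated mice, at 8.68 to 11.98 FPKM, all lay above the former and below vehicle mice 3 and 5, and overlapped vehicle mouse 6. The SD of Fos was 4.55 FPKM with vehicle and 1.23 FPKM with the cells (n = 6 each). For 13 of the 18 genes (72.2%) the SD was larger with vehicle, as it was for 63.6% of the 13619 genes.

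Arc, a synaptic protein that restrains AMPA receptors, was at 17.0 to 81.5 FPKM (median 40.1) with vehicle and 43.4 to 60.1 FPKM (median 48.6) with the cells. For Arc the log2 fold change was 0.40 (SE 0.38, two-sided exact permutation p = 0.307). Sik1, a kinase induced by cAMP that retains CREB coactivators in the cytoplasm, was at 2.18 to 3.78 FPKM (median 2.44) with vehicle and 2.75 to 4.07 FPKM (median 3.59) with the cells, and all 6 treated mice lay above the vehicle median. The groups overlapped through vehicle mouse 3. The difference was 0.43 on the log2 scale (SE 0.19, adjusted limma p = 0.995, two-sided exact permutation p = 0.0216). It was 0.37 with the library set as a term and 0.52 outside the set.

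The cAMP response element TGACGTCA, which reads the same on both strands, was found in 2 of the 13 genes of this list with a promoter window and in 549 of 27025 genes with a window (2.03%). The 2 genes were Dusp1, a phosphatase of MAP kinases, and Btg2, an antiproliferative factor, both named here for the match. Dusp1 was at medians of 10.6 and 12.8 FPKM (log2 fold change 0.22, SE 0.21) and Btg2 at medians of 5.59 and 5.60 FPKM (log2 fold change -0.09, SE 0.14). Both windows are on the minus strand, at chr17:26508423-26508722 and chr1:134079106-134079405, and capitals mark the element.
Dusp1: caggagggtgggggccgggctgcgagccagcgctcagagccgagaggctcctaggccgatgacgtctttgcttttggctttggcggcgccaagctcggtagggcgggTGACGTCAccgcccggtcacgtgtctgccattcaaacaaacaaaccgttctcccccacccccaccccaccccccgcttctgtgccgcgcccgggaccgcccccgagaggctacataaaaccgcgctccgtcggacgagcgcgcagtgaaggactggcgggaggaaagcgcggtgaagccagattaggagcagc
Btg2: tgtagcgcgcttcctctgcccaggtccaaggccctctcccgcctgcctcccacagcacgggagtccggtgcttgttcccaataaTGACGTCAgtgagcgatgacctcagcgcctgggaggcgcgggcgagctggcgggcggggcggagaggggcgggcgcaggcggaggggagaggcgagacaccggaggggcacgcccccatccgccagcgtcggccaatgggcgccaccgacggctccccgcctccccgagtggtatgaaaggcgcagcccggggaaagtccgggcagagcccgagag

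Clock genes follow the time of day. Of 15, 14 (93.3%) were higher with the cells at a median log2 fold change of 0.08. In limma 0 were under 0.05 before adjustment. With the library set as a term 11 of 15 were higher and the median was 0.01. In the 9 mice outside the set (background 49.5%) 12 of 15 were higher and the median was 0.05. Without vehicle + AEC mouse 6, 12 of 15 were higher and the median was 0.20, but the set was then in vehicle mice only. The share over all genes in that fit is not given. Per1 was at 14.7 to 21.9 FPKM (median 17.2) with vehicle and 19.4 to 22.96 FPKM (median 21.8) with the cells, with all 6 treated mice above the vehicle median (log2 fold change 0.30, SE 0.15, two-sided exact permutation p = 0.0303). Per1 is also a member of the glucocorticoid list, so the counts of those lists share a gene. Ciart, a repressor of the clock, was at medians of 5.54 and 6.91 FPKM (log2 fold change 0.22, SE 0.13). Per3 was at 1.68 to 1.93 FPKM in the 3 libraries of the set and at 3.48 to 3.99 FPKM in the other 9. Cry1, named after its values were seen, had a log2 fold change of 0.20 over the 12 mice, 0.09 with the set as a term and 0.31 outside the set. In vehicle + AEC mouse 6 Cry1 was at 4.71 FPKM, below every vehicle mouse.

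Fibroblast genes of the meninges lay on the lower side. Of 11, 10 were lower with the cells (background 47.2%), at a median log2 fold change of -0.21, and 10 were lower with the library set as a term, at a median of -0.12. Outside the set 8 of 11 were lower, with 3 higher. Lum, a proteoglycan that organises collagen fibrils, was at 0.923 to 1.38 FPKM (median 1.04) with vehicle and 0.740 to 1.04 FPKM (median 0.808) with the cells. The 5 lowest treated mice lay below every vehicle mouse, and the log2 fold change was -0.34 (SE 0.14, adjusted limma p = 0.995, two-sided exact permutation p = 0.0173). Dcn, a proteoglycan that binds collagen and transforming growth factor beta, was at 3.30 to 5.19 FPKM and 2.79 to 3.55 FPKM, with all 6 treated mice below the vehicle median (log2 fold change -0.21, SE 0.10). Ogn had medians of 3.27 and 2.82 FPKM and a log2 fold change of -0.23 (SE 0.13).

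Col1a1, the chain of fibrillar collagen I, was at 4.20 and 4.42 FPKM in the 2 vehicle mice of the library set and at 2.17 to 2.47 FPKM in the other 4. Treated mice were at 3.02 FPKM in the library of the set and 1.56 to 2.20 FPKM in the other 5. Col1a1 had a log2 fold change of -0.43 (SE 0.24), -0.28 with the set as a term and -0.24 outside the set. In the wider list of collagens and matrix proteins, 15 of 18 genes were lower at a median of -0.07, and 11 of 18 outside the set. That list shares Col1a1, Col1a2 and Col3a1 with the fibroblast list. Col3a1 was at 0.505 to 0.990 FPKM and 0.375 to 0.618 FPKM, a log2 fold change of -0.25 (SE 0.18). How much meninges came with each hemisphere was not tested.

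**Figure D4:**
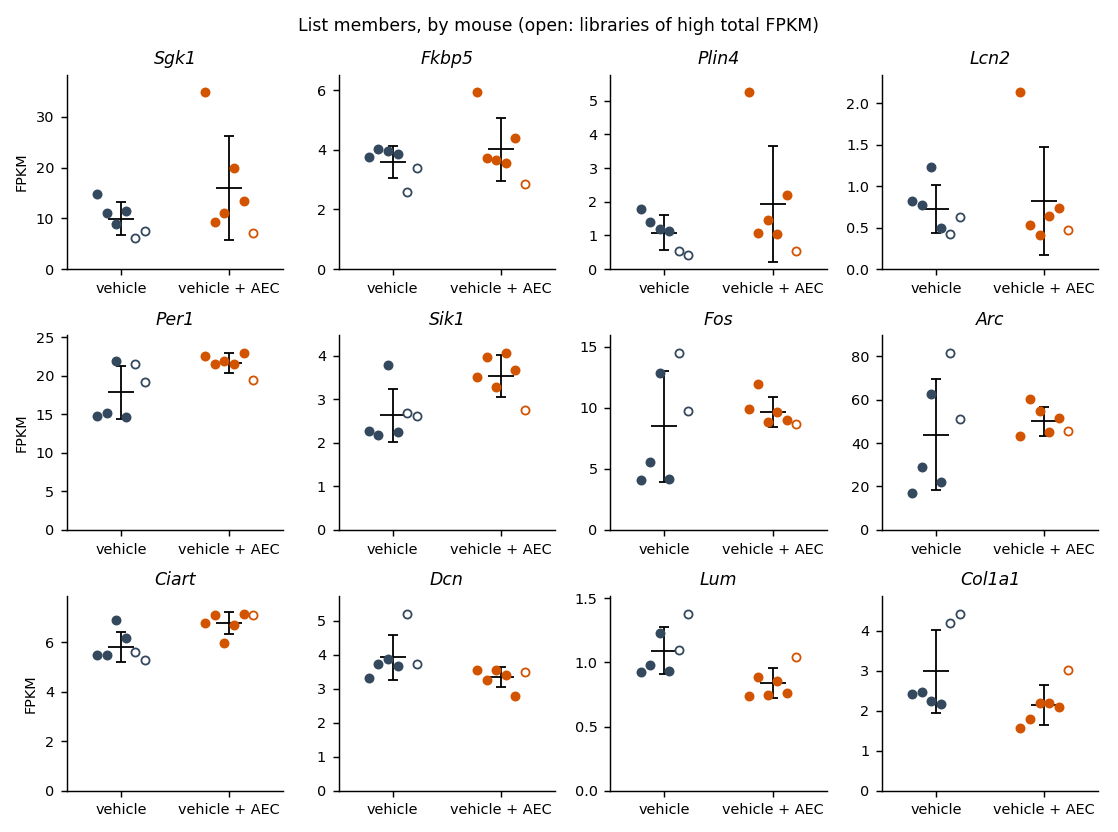
FPKM in each mouse (points) of 12 list members, with the group mean and SD (black) and open points for the 3 libraries of high summed FPKM. Vehicle + AEC mouse 1 is the highest point for Sgk1 (34.9 FPKM), Fkbp5, Plin4 and Lcn2. Vehicle mice are spread more widely than treated mice for Fos and Arc, and Col1a1 is higher in the open points of both groups.

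Transcripts of the mitochondrial genome encode 13 subunits of the respiratory chain. Of these, 11 were lower with the cells, at a median log2 fold change of -0.15, at -0.06 with the library set as a term (12 lower) and at -0.12 outside the set (12 lower). Of the 13, 0 were under 0.05 before adjustment in limma. The member of lowest p-value was mt-Atp8, at 45.3 FPKM in vehicle mouse 3 and 1.88 to 8.56 FPKM in the other 11 mice, and mt-Atp8 shares bases with mt-Atp6.

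Genes of neutrophils were higher for 11 of 13 tested members, at a median log2 fold change of 0.21. In limma 0 were under 0.05 before adjustment. S100a8, a subunit of calprotectin, was at 1.75 to 3.69 FPKM (median 2.40) with vehicle and 2.01 to 5.54 FPKM (median 3.32) with the cells. Lcn2, an iron-scavenging protein that glucocorticoids also induce, was at 2.14 FPKM in vehicle + AEC mouse 1 and 0.409 to 0.735 FPKM in the other 5. Without mouse 1, 9 of 13 members were higher at a median of 0.15, and outside the library set 9 of 13 at a median of 0.35. For platelets 2 of 7 members were higher, for T and NK cells 4 of 16 and for B and plasma cells 4 of 10. Outside the library set these counts were 2, 7 and 6. Erythroid genes turned with the set, with 3 of 10 higher at a median of -0.10 in all 12 mice, 6 of 10 with the set as a term and 8 of 10 at a median of 0.10 outside it. The monocyte gene Plac8 was at medians of 0.177 and 0.0921 FPKM, from at most 7 reads in a mouse, with a log2 fold change of -0.58 (SE 0.26, two-sided exact permutation p = 0.0498).

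Microglial and inflammatory lists lay near or below the background. Of 12 microglial genes 5 were higher, at a median of -0.02, and Tmem119, a marker of resident microglia, was at 7.69 to 15.1 FPKM and 7.56 to 13.8 FPKM. Of 14 genes of microglial activation 3 were higher, at a median of -0.08. Cd68, a lysosomal protein of phagocytes, was at medians of 6.51 and 5.05 FPKM, with a log2 fold change of -0.34 (SE 0.22), and -0.21 with the library set as a term. Tyrobp, an adaptor of microglial receptors, was at medians of 15.3 and 12.7 FPKM, with -0.32 (SE 0.21) and -0.20. In the interferon response 3 of 19 and in antigen presentation 3 of 16 genes were higher, and with the set as a term 9 of 19 and 8 of 16 were. C5ar1, the receptor of the complement fragment C5a, was at 0.226 to 0.481 FPKM (median 0.309) with vehicle and 0.374 to 0.620 FPKM (median 0.469) with the cells. The C5ar1 difference was 0.40 on the log2 scale (SE 0.17, adjusted limma p = 0.995, two-sided exact permutation p = 0.0325). Cd14, the lipopolysaccharide co-receptor, had medians of 1.74 and 2.11 FPKM, a log2 fold change of 0.42 (SE 0.22).

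Markers of the brain's resident cell types were read next. The medians of 10 astrocyte, 12 endothelial, 11 oligodendrocyte, 10 excitatory neuron, 13 interneuron and 12 choroid plexus genes lay between -0.05 and 0.05, with 5, 5, 2, 7, 6 and 7 members higher. With the library set as a term 3, 4, 5, 7, 7 and 4 members were higher. Pericyte and smooth muscle genes had 3 of 10 members higher at a median of -0.20, and -0.06 with the library set as a term. Oligodendrocyte precursor genes had 2 of 9 higher at a median of -0.12, and 4 of 9 outside the set, while Pdgfra, the receptor that marks these cells, was at medians of 3.29 and 3.77 FPKM and higher by 0.20 on the log2 scale with the set as a term. Agrp, an appetite peptide of the hypothalamus, was at medians of 1.04 and 0.802 FPKM. Striatal neuron genes had 5 of 13 members higher, monoamine neuron genes 8 of 10 and ependymal genes 3 of 10. Hypothalamic neuropeptides had 5 of 14 higher at a median of -0.11, and 9 of 14 at a median of 0.02 outside the library set. Among signalling lists, 11 of 20 neurotrophic and growth factors, 9 of 21 cytokines and chemokines and 6 of 12 adhesion genes were higher. Complement genes had 5 of 16 higher, and 10 of 16 outside the set. Chaperones had 6 of 17 higher at a median of -0.05, 9 of 17 with the set as a term and 12 of 17 at a median of 0.05 outside it. The 6 pituitary hormone genes had the lowest list median, -0.53, with Gh at 22.01 FPKM in vehicle mouse 3 and 0 to 4.20 FPKM in the treated mice, and pituitary tissue carried along was not tested.

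Amnion epithelial genes, read here as their mouse counterparts, were higher for 10 of 17 tested members (58.8%), at a median log2 fold change of 0.04, for 8 of 17 with the library set as a term and for 7 of 17 outside it. Krt18, a keratin of simple epithelia, was at 0.624 to 1.78 FPKM with vehicle and 0.955 to 2.17 FPKM with the cells. Mal2, which the brain also expresses, was at medians of 34.5 and 33.9 FPKM.

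The study had named genes for a response to the cells under angiotensin II (background there 2.16% under 0.05 before adjustment), and it was asked whether they lay on the same side without it. Those 20 genes were chosen on mice that do not enter the vehicle comparison. The 7 tested genes named as higher were higher in 5 cases with the cells in vehicle mice, at a median log2 fold change of 0.07, against a median of 0.90 in the angiotensin II-infused mice from which they were chosen. Outside the library set 6 of the 7 were higher, at a median of 0.31. The 10 tested genes named as lower were higher in 7 cases in vehicle mice, at a median of 0.12, against -0.50 in angiotensin II-infused mice. Outside the library set 5 of the 10 were higher and 5 lower, at a median of 0.03. Azgp1, Blk and Dmbt1 were not tested, because they were above 0 FPKM in fewer than 6 of the 12 mice.

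In vehicle mice Camp, an antimicrobial peptide of neutrophils, was at medians of 0.387 and 0.483 FPKM, a log2 fold change of 0.06 (SE 0.46), and Ccl8, a monocyte chemokine, had at most 3 and 4 reads. Il17c, an epithelial cytokine, had at most 1 and 3 reads. Ppbp, Il18rap, Fcrl6 and Cd5 had log2 fold changes of 0.14, 0.12, -0.01 and -0.10. On the other list Treml4, a receptor of myeloid cells, was the member of lowest p-value (adjusted limma p = 0.995, two-sided exact permutation p = 0.0368). Treml4 had at most 6 reads per vehicle mouse and 2 per treated mouse, and its groups overlapped. Against the floor of 3 reads per library it was at least 1.15-fold lower, a bound that leaves out the spread between mice. Ptcra, the invariant chain of the pre-T cell receptor, had at most 3 and 4 reads, and Cfb, complement factor B, at most 2 and 3. Tarm1 and Apoh were lower by 0.26 and 0.23 on the log2 scale, and Bpifb1, Prokr1 and Ptgdr2 were higher by 0.02, 0.22 and 0.10. Prokr1 had at most 5 reads per vehicle mouse and 7 per treated mouse, and Ptgdr2 at most 7 and 6. Ulbp1 had at most 3 and 6 reads and was at least 1.03-fold higher. The T cell receptor segment Trbj2-1 had at most 3 and 4 reads.

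**Figure D5:**
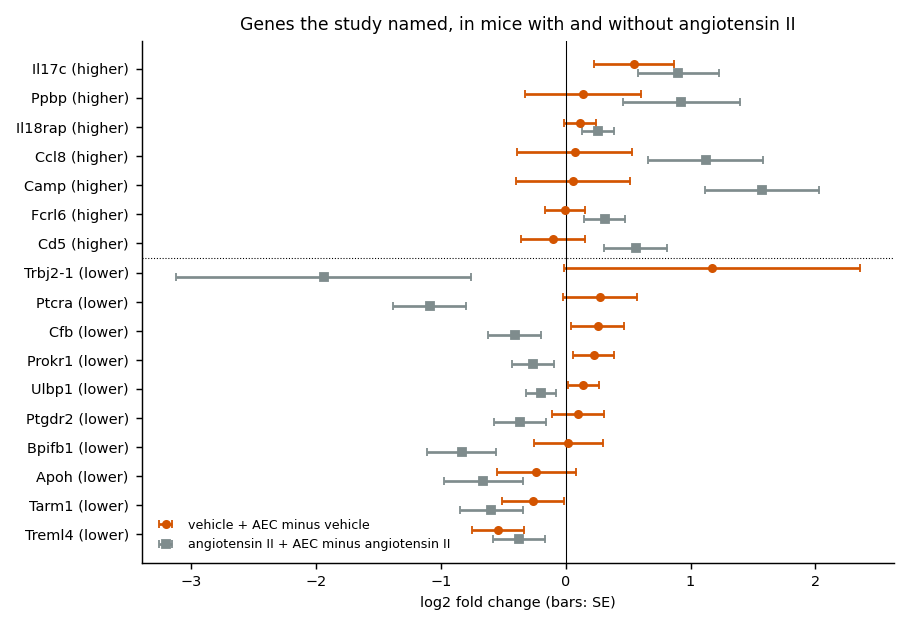
Log2 fold change with SE for the effect of amnion epithelial cells in vehicle mice (orange circles) and in angiotensin II-infused mice (grey squares), for the 17 tested genes that the study named as higher (above the dotted line) or lower (below it) with the cells under angiotensin II. The grey values are those that chose the genes, the orange ones come from other mice and 7 of the 10 genes below the line lie to the right of 0 (5 of 10 without the 3 libraries of high summed FPKM, not drawn).

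Whether the effect of the cells differed between vehicle and angiotensin II-infused mice was tested as an interaction. No gene had an adjusted p-value under 0.05 (0 of 24299, limma), 539 (2.22%) were under 0.05 before adjustment (582 with voom), and the lowest adjusted value was 0.0734, for Tnni3k. Its log2 fold change with the cells was -0.76 in vehicle mice and 0.45 (SE 0.14) in angiotensin II-infused mice. Of the genes named above, Psma8 and Prss22 had log2 fold changes of 0.53 and 0.25 under angiotensin II, and neither interaction passed adjustment. They were chosen for their value in vehicle mice, which is 1 side of that difference. Of the 17 study genes, 5 were under 0.05 for the interaction before adjustment, namely Camp, Ptcra, Bpifb1, Prokr1 and Cfb, each chosen by the study for its value under angiotensin II, so this is not independent evidence of a difference.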

How the data were processed

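The authors mapped poly(A) RNA reads to the Ensembl mouse genome (GRCm38, per the submitters' processing notes) and deposited 1 table of FPKM values with gene lengths and coordinates. They tested genes with DESeq 1.10.1, and their test is not used here. The aligner, the counter, use of strand and the annotation release are not given in the sources used here. Of 54532 gene identifiers, 54409 are in GENCODE M21, 98.3% of them with the same start and end.

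Mice were grouped by their treatment label. A single limma model (limma 3.58.1, R 4.3.3) was fitted to log2(FPKM + 0.1) of the 24 mice, 4 groups of 6, with eBayes and a trend. A gene entered when it was above 0 FPKM in 6 or more of the 12 mice, and p-values were adjusted by Benjamini-Hochberg. An exact permutation test of 6 against 6 mice, two-sided, was added for single genes. FPKM times gene length gave whole reads for 100% of values (within 0.05 reads, values under 1000 reads), which gave the totals per library and a voom alternative. Bounds against 3 reads per library cover counting error only. The procedure was tested on simulated data. Summaries were made in Python 3.11.15 (numpy 2.4.6, pandas 2.3.3) and plots in matplotlib 3.10.9.

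The genes named are the 12 higher and 12 lower of lowest p-value with a mean of at least 1 FPKM, the 3 higher and 3 lower of lowest p-value among all genes, up to 4 members of lowest p-value and 4 of highest mean from each list, and all members of the 2 lists the study named, apart from exceptions stated where they occur. The 5 higher and 5 lower genes of lowest p-value with the library set as a term were added after seeing the data. The members, lists and tests were chosen with earlier results of these data known. A gene symbol shared by several identifiers was left out of the lists. Pairs of mice within a group differed beyond sampling noise (chi-square per gene of 3.04 to 86.98), so no library was a copy of another. Each library is a separate mouse. Where named genes share exon bases with another gene (also Agrp, Apoh, Cfb, Col3a1, Dusp1, Pdgfra, Plin4, Ptgdr2 and Sult1a1), their reads cannot be told apart without knowing how the authors counted. A list member that the naming rule selects is not reported here.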

Additional observations from a re-analysis of the deposited data

Results flagged for a closer look

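For 21 of the genes described, in a group of 6 mice, the gap between the most extreme mouse and the next exceeded Dixon's 95% limit as a share of the group's range, which chance gives for about 1 in 20 groups. The genes were screened in both groups, apart from groups with at most 3 reads in every mouse. How many such screens were made is not given, and some genes were named for an extreme mouse. The number 21 therefore cannot be set against that share. In vehicle + AEC mouse 6, of the library set, these were Fbxo42 (7.39 FPKM), Champ1 (6.11), 2610306M01Rik (7.55), Pcp4 (97.9), Tyrobp (22.6), Cd68 (9.66), Per3 (1.93) and Cry1 (4.71 FPKM). In vehicle + AEC mouse 1 they were Lcn2 (2.14 FPKM) and Plin4 (5.26 FPKM), both targets of the glucocorticoid receptor. In vehicle mouse 5, also of the set, they were Mmadhc (22.6 FPKM), Dcn (5.19 FPKM) and Col3a1 (0.990 FPKM). In vehicle mouse 3 they were Gh (22.01 FPKM), Sik1 (3.78 FPKM) and mt-Atp8 (45.3 FPKM). In vehicle mouse 4 they were Ptgdr2 (0.144 FPKM) and Fcrl6 (0.102 FPKM). Single values were Prokr1 in vehicle mouse 1 (0.0636 FPKM), Fos in vehicle + AEC mouse 2 (11.98 FPKM) and Ciart in vehicle + AEC mouse 3 (5.96 FPKM).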

How the results depend on the processing

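Of 25 alternative fits, 24 gave 0 genes with an adjusted p-value under 0.05, and the fit of the 12 mice alone gave 1. That gene, Gm43150, was at 0 in all vehicle mice and at 1 to 6 reads in those given the cells, so it met the filter of 6 mice only through the group where it is high, and the call supports nothing. The 30 genes named by the rule kept their direction in all 738 fits made, 721 of them with an unadjusted p-value under 0.05. They include Gm43150 and Gm15727, which met the filter only or chiefly through the group where they are high. All were chosen for low p-values in these same mice. Refits of those mice share that choice, so these counts are no support for a difference. The number of genes with an unadjusted p-value under 0.05, 517, became 905 without a filter on low values, 107 with a mean of at least 1 FPKM, 1162 with array weights, 823 with the library set as a term, 991 outside the set and 326 with the set as a term and a mean of at least 1 FPKM. Among the 461 list members the number, 6, became 2 with a mean of at least 1 FPKM, 11 in the 12 mice alone, 25 with array weights, 16 with the set as a term, 26 outside the set and 11 with the set as a term and a mean of at least 1 FPKM. For the interaction, 539 became 834 without a filter, 117 with a mean of at least 1 FPKM, 1131 with array weights, 970 outside the set and 296 with the set as a term and that mean. Leaving out 1 mouse at a time gave 455 to 1037 genes and 4 to 24 list members, the high ends (1037 and 24) without vehicle + AEC mouse 6, and 10 list members without vehicle + AEC mouse 3. Without vehicle + AEC mouse 6, the compared libraries of the set were in the vehicle group only. Apart from filters, which change how many genes are tested, the cause of these shifts was not tested.

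The labels name no pairing by replicate number. Deviations of same-numbered mice correlated at -0.0282 to 0.797, and 2 of 6 vehicle + AEC mice correlated best with their own number. The library set enters these correlations: vehicle mice 5 and 6 correlated at 0.777 and 0.797 with vehicle + AEC mouse 6. Libraries of the set all carry number 5 or 6, so the correlations cannot decide whether the numbers pair the mice. With the replicate block, 895 genes, 19 list members and 1270 interaction genes had an unadjusted p-value under 0.05, and 928, 15 and 868 with the block and the library set, with 0 adjusted calls in both. Depth limits the weakly expressed genes, and the intervals were widest between 0.1 and 1 FPKM.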
